A study of Mus musculus with 18 samples.

Results

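The replication-dependent histone genes are the 68 of 23238 gene symbols in the count tables that start with Hist1h, Hist2h, Hist3h or Hist4h. They comprise 6 genes of the linker histone H1 and 18 H2A, 19 H2B, 12 H3 and 13 H4 genes, whose proteins form the nucleosome core. The members were chosen by symbol alone, but the family was selected on measured values, because 2 of its H2A genes, Hist1h2ao and Hist1h2ap, had passed the test on read counts between genotypes in lymphatic endothelial cells (LECs). Values from LECs of both genotypes, and from the interaction of genotype and cell type, are therefore given as a description. The 68 genes were counted in 18 RNA-seq libraries of sorted cells from the small intestine of adult C57BL/6J mice.

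The 4 groups were 6 WT and 5 KO libraries of PDGFRβ+ intestinal stromal cells (IntSCs) and 4 WT and 3 KO libraries of LECs from the lacteals, the lymphatic capillaries of the villi. WT mice carried PDGFRb+-CreERT2-Tomato+, a Cre that tamoxifen switches on in cells using the Pdgfrb promoter, with a red reporter, and KO mice carried the same alleles with Lats1 f/f and Lats2 f/f. LATS1 and LATS2 are the kinases of the Hippo pathway that keep the coactivators YAP and TAZ out of the nucleus. Cre was driven in PDGFRβ+ cells, so the LECs of KO mice were neighbours of the targeted cells, and all groups shared the Cre, the reporter and the cell sorting. The study's supplement counts mice in each group and pools several experiments, but the labels tie no library to a mouse or an experiment. The p-values thus measure the spread between these libraries, and an effect of the experiment could not be tested.

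Replication-dependent histone mRNAs are made in S phase, when new DNA has to be packed into nucleosomes. Their transcripts end in a conserved stem-loop that binds the protein SLBP, and most of them carry no poly(A) tail. Some histone genes, among them Hist1h1c, Hist1h2bc and Hist2h2be, are known to give polyadenylated transcripts in cells that have stopped dividing. The Quant-Seq kit named in the labels primes on poly(A), so read counts here need not follow the amount of histone mRNA. Values are in CPM, reads scaled to a common library size with TMM factors over the 18 libraries. They give each gene's share of the reads, and levels were not compared between genes of different length.

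The stem-loop was searched for in the GENCODE vM21 transcripts (GRCm38) as a stem of 6 base pairs opening with GG around a loop of 4 bases opening with TT, past the first 40% of the transcript. It was found in 33 of 68 histone genes (48.5%) and in 3.47% of 58725 coding transcripts of other genes. Many annotated histone transcripts stop at the end of the coding sequence, so a missing stem-loop says only that these letters were not in the annotated transcript. Each of the 6 forms is given for 1 gene, because they are the shared 3′ end that sets these mRNAs apart, with the loop in capitals.
Hist1h2ap, chr13:21833029-21833044, minus strand, form shared by 18 genes: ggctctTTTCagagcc
Hist1h1t, chr13:23696525-23696540, plus strand, form shared by 6 genes: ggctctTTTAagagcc
Hist1h4n, chr13:21831798-21831813, minus strand, form shared by 5 genes: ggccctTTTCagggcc
Hist1h4b, chr13:23757366-23757381, plus strand, form shared by 2 genes: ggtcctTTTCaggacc
Hist1h4i, chr13:22040966-22040981, minus strand, form of 1 gene: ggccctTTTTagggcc
Hist2h2ac, chr3:96220418-96220433, minus strand, form of 1 gene: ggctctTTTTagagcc
The form of Hist1h2ap occurred in H1, H2A, H2B and H3 genes, and the H4 genes with a stem-loop had forms with another stem. Of the 68 genes, 54 lie on chromosome 13, 10 on chromosome 3, 3 on chromosome 11 and 1 on chromosome 6.

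Reads from stretches that near-identical copies share cannot be told apart, and how such reads were counted is not given. The coding sequences (the longest open reading frames, stop codon included) were therefore compared within each class. Hist1h2ao (chr13:21810465-21810944, plus strand) and Hist1h2ap (chr13:21833026-21833507, minus strand) have the same coding sequence of 393 bases. With 10 other H2A genes of chromosome 13, which differ from Hist1h2ap at 3 to 12 bases, they form a group of 12 H2A genes with an identity to Hist1h2ap of at least 96.9%. The other 6 H2A genes share 83.5% to 91.3% with Hist1h2ap. The rows of Hist2h2aa1 and Hist2h2aa2 held the same count in all 18 libraries (3605 reads each in total), and so did the rows of Hist2h3c1 and Hist2h3c2 (89 reads each). Class sums include both rows of a pair.

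RefSeq promoter windows (GRCm38.p6, 250 bases before to 50 after the annotated start) matched 62 of the 68 genes. CCAAT, the core of the NF-Y binding motif, stood on either strand in 53 of 62 windows (85.5%), against 37.4% of all 32851 windows. It was present in all windows of the 6 H1, 18 H2A, 16 H2B and 10 H3 genes that matched and in 3 of 12 H4 windows. TATAAA was present in 35 of 62 windows (56.5%, against 13.6% of all windows). The E2F-type letters TTTCGCGC or TTTGGCGC were present in 9 of 62 windows (14.5%, against 0.813%), 5 of them of H2A and 4 of H2B genes, and all 9 held TTTCGCGC. Windows of neighbouring H2A and H2B genes can overlap, so these counts are not independent. In 0 of the 62 windows did different motifs overlap. The 250 bases before the start are shown for Hist1h2ap, the H2A gene with the most reads, for Hist2h2bb, whose reads differed between WT cell types, and for Hist1h4d, the H4 gene with the most reads, with these motifs in capitals on either strand.
Hist1h2ap, chr13:21833476-21833725, minus strand: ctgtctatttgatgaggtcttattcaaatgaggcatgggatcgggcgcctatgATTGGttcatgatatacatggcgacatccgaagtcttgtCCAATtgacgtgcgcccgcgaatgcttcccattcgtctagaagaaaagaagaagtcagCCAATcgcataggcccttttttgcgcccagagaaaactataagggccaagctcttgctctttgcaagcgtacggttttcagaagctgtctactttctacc
Hist2h2bb, chr3:96269450-96269699, plus strand: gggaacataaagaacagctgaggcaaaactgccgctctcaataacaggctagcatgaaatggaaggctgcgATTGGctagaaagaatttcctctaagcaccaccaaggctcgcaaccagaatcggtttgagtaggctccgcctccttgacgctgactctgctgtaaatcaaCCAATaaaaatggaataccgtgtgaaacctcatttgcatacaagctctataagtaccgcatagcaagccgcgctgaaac
Hist1h4d, chr13:23581318-23581567, plus strand: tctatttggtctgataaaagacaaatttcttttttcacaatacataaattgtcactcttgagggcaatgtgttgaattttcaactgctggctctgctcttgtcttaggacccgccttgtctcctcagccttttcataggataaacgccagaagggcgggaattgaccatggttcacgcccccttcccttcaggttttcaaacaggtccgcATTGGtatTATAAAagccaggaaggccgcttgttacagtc
The Hist1h2ap window held 3 CCAAT motifs and neither of the other motifs. It shared an unbroken stretch of 200 bases with the window of Hist1h2ao. Hist1h4d had 1 CCAAT and also TATAAA.

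Sequencing depth ranged from 5361250 to 10549233 counted reads per library, so 3 reads corresponded to 0.284 to 0.560 CPM. LEC markers (9 genes, such as Prox1 and Lyve1) summed to 8911 to 12930 CPM in WT LECs and to 237 to 414 CPM in WT IntSCs, and the 9 stromal markers to 659 to 2189 and 11644 to 17908 CPM. In IntSCs, Lats1 was read at 17.3 ± 10.2 CPM (SD) in the 6 WT libraries and at 15.9 ± 3.55 CPM in the 5 libraries labelled KO, and Lats2 at 72.0 ± 23.7 and 113 ± 20.9 CPM. Neither was called lower (adjusted p = 0.987 and 0.252, edgeR), so these counts alone neither bear out nor contradict the label KO. If the kit was the one named in the labels, reads come from 3′ ends and may lie outside the deleted part, where they check nothing. For mice with this deletion, the paper reports raised and mostly nuclear YAP and TAZ in PDGFRβ+ IntSCs. It also reports higher mRNA of Vegfc and of Ctgf, a target gene of YAP and TAZ, in sorted IntSCs. Those findings were not tested here.

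Most histone reads belonged to H2A. Of the 68 genes, 2 (Hist1h3b and Hist3h2bb-ps) had no read in any library, and 15 had 1 to 20 reads over all libraries. The 15 genes with reads in all 18 libraries were the 12 near-identical H2A genes, Hist2h2aa1, Hist2h2aa2 and Hist1h2bc. H2A made up 59.8% ± 8.40 of histone CPM in WT IntSCs (SD, n = 6), 53.5% ± 9.999 in IntSCs labelled KO (n = 5), 65.6% ± 15.7 in WT LECs (n = 4) and 86.4% ± 5.54 in LECs labelled KO (n = 3). H3 made up 0.00943% to 2.12% on average in the 4 groups. Genes of the H2B, H3 and H4 classes often had reads in few libraries, as the map of all 68 genes shows.

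**Figure D1:**
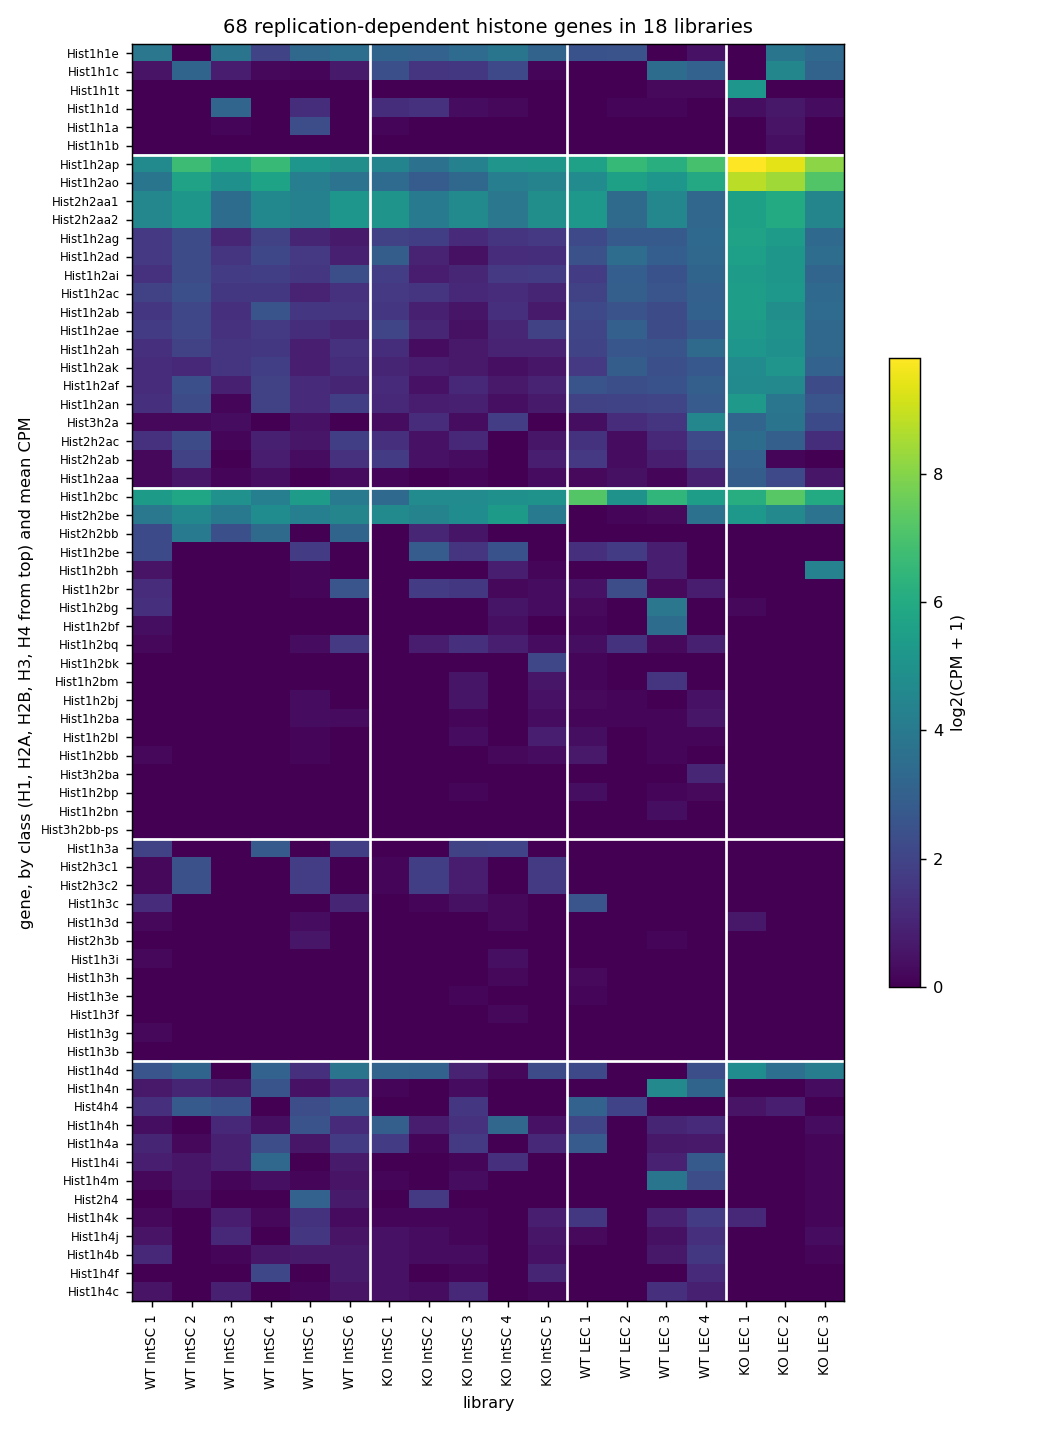
Read counts of all 68 histone genes (rows, by class and falling mean) in the 18 libraries (columns), shown as log2(CPM + 1) by colour. The 12 near-identical H2A genes, Hist2h2aa1, Hist2h2aa2 and Hist1h2bc had reads in every library, and Hist1h2ap and Hist1h2ao were brightest in the 3 LEC libraries labelled KO.

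The first question was whether histone reads differed between genotypes in the stromal cells that the Cre targets. No histone gene passed the test between IntSCs labelled KO and WT, and summed histone CPM was 181 ± 23.4 (SD, n = 5) against 258 ± 79.9 (n = 6), a ratio of 0.700 with overlapping groups. Of the 68 genes, 41 had a lower and 21 a higher mean in the libraries labelled KO, and 6 had no read in either group. The filter on low counts kept 21 genes, of which edgeR's quasi-likelihood test called 0 at an adjusted p under 0.05, against 1.47% of all 12421 genes tested (0.853% higher and 0.620% lower). None of the 21 had groups that did not overlap, while 1.63% of all genes tested lay above and 1.18% below the WT range in all libraries labelled KO. With an unadjusted p under 0.05 there were 3 genes (Hist1h2ap, Hist1h2ao and Hist2h2bb, each lower), beside 1219 of all 12421 genes tested. DESeq2 called 1 of the 21, Hist2h2bb, beside 376 of all 12421. The median log2 fold change of the 21 genes was -0.55, beside 0.00 over all genes tested.

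Hist1h2ap, which encodes the core histone H2A, had 25.1 CPM in the lowest, 47.5 in the median and 106 in the highest of 6 WT IntSC libraries. The 5 IntSC libraries labelled KO had 20.4, 11.9, 18.7, 33.3 and 35.1 CPM. The WT libraries 2, 3 and 4 lay above all libraries labelled KO and the other 3 among them, so the groups overlapped. The log2 fold change was -1.30 ± 0.40 (SE), with an adjusted p of 0.139 (edgeR). Hist1h2ao, with the same coding sequence, had a WT median of 23.4 CPM (12.2 to 49.97) and, where the label was KO, 9.66, 6.31, 8.80, 17.4 and 19.98 CPM, a log2 fold change of -1.21 ± 0.47 (adjusted p = 0.328, edgeR). The 10 other near-identical H2A genes summed to 13.5 to 34.1 CPM in WT and 7.97 to 23.9 CPM in libraries labelled KO, again with overlap. Hist2h2aa1, an H2A gene outside that group, had 24.0 ± 9.80 CPM in WT and 23.0 ± 8.21 CPM where the label was KO. The log2 fold change of this gene was -0.07, with a 95% interval of -0.83 to 0.69.

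Hist2h2bb, an H2B gene of chromosome 3 (chr3:96269752-96270132, plus strand), had the largest fitted difference of the 21 genes. It had 0, 3.58, 4.31, 7.86, 9.36 and 16.1 CPM in the WT IntSC libraries and 0, 1.07, 0.48, 0 and 0 CPM in those labelled KO. One WT library (replicate 5) was at 0 like 3 of the others, so the groups overlapped. The log2 fold change was -4.39 ± 1.54 with an adjusted p of 0.224 in edgeR and 0.0207 in DESeq2. Hist2h2bb passed the filter on low counts through the WT group alone, so its call in DESeq2 is a description. Hist1h2bc, known to give polyadenylated transcripts, had a WT median of 34.8 CPM (15.1 to 55.3) and 9.14, 25.6, 25.3, 29.2 and 31.5 CPM in libraries labelled KO (log2 fold change -0.46 ± 0.39). Hist2h2be, of the same kind, had a WT median of 19.5 CPM (14.3 to 26.2) and 25.1, 19.7, 26.3, 39.3 and 15.6 CPM (log2 fold change 0.36 ± 0.36). The H1 gene Hist1h1e had 8.15 ± 5.52 and 9.13 ± 2.33 CPM and the H4 gene Hist1h4d 5.83 ± 4.67 and 3.98 ± 3.48 CPM. The adjusted p of these 4 genes lay between 0.826 and 0.987 (edgeR).

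By class, summed CPM in IntSCs was 12.1 ± 6.23 in WT and 12.2 ± 3.31 in libraries labelled KO for H1, 159 ± 69.5 and 98.0 ± 27.2 for H2A, and 62.7 ± 16.8 and 55.5 ± 14.8 for H2B. For H3 it was 4.78 ± 2.92 and 3.66 ± 1.97, and for H4 19.9 ± 8.13 and 11.5 ± 4.23. In each class the groups overlapped. The largest share of the difference in H2A came from the 12 near-identical genes (108 ± 60.3 and 49.6 ± 17.2 CPM), since the other 6 H2A genes summed to 50.9 ± 21.9 and 48.4 ± 16.9 CPM.

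**Figure D2:**
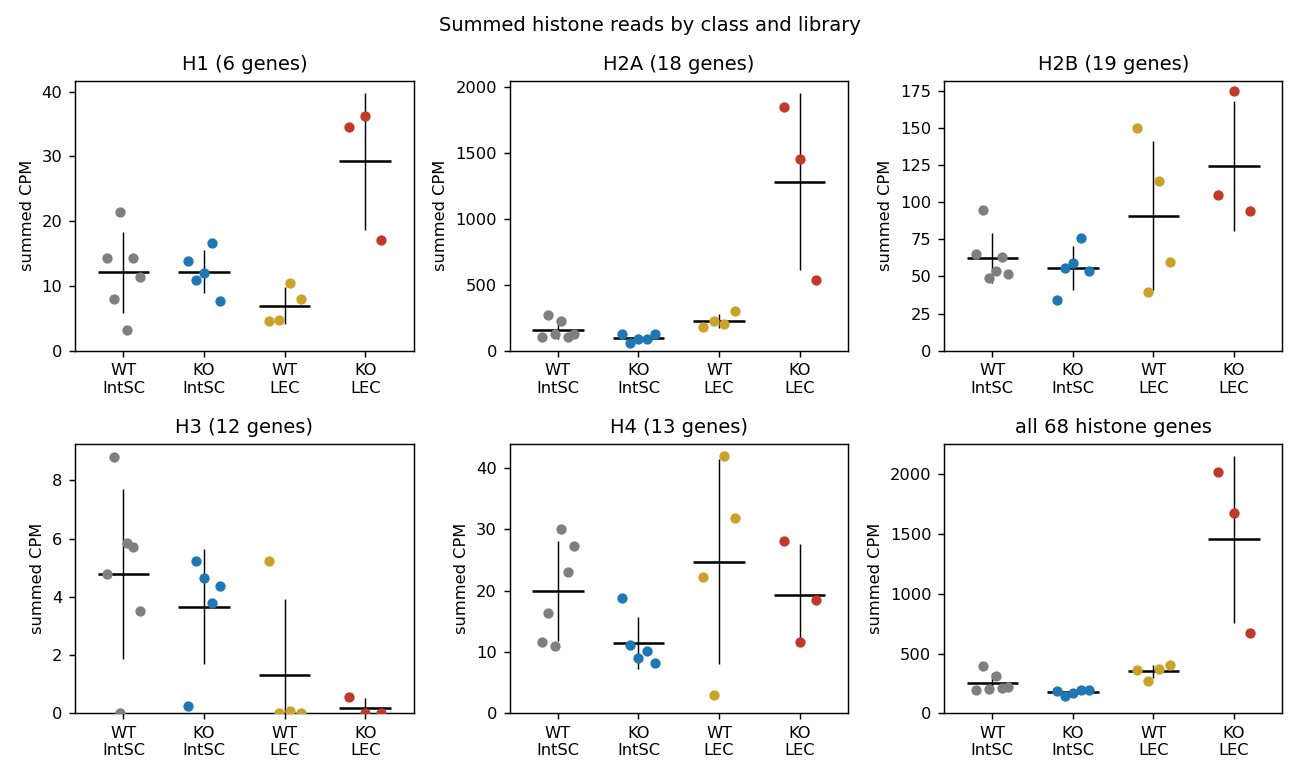
Summed CPM of the genes of each histone class and of all 68 genes, with 1 point per library, the group mean as a horizontal bar and the SD as a vertical line. All classes overlapped between the IntSC groups. H2A and the total lay higher in the 3 LEC libraries labelled KO than in the 4 WT LEC libraries, and so did H1, where Hist1h1t gave 34.2 of the 34.5 CPM of KO LEC replicate 1.

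The second question was how WT LECs differ from WT IntSCs in histone reads. Summed histone CPM was 351 ± 57.3 in WT LECs (SD, n = 4) and 258 ± 79.9 in WT IntSCs (n = 6), a ratio of 1.36 with overlapping groups. The WT LEC libraries are also those of the comparison between LEC genotypes. Of the 68 genes, 44 had a higher and 20 a lower mean in LECs, and 4 had no read in either group. Of 23 genes tested, 1 was called lower in LECs and 0 higher, against 12.3% and 10.3% of all 12203 genes. The median log2 fold change of the 23 genes was 0.63, beside -0.04 over all genes tested.

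The gene called was Hist2h2bb. Its 24 to 95 reads in 5 of the WT IntSC libraries contrasted with 0 reads in all 4 WT LEC libraries, while WT IntSC replicate 5 was also at 0. With 3 reads over the WT LEC group as the floor, its mean share of the reads was at least 89.2-fold lower in LECs (adjusted p = 0.0145, edgeR). It passed the filter on low counts through the IntSC group alone, so its call is a description. Hist2h2be was also low in LECs, at 0, 0.12, 0.19 and 12.03 CPM against 14.3 to 26.2 CPM. All 4 LEC libraries lay below all WT IntSC libraries. The log2 fold change was -2.66 ± 1.32 and the adjusted p 0.179 (edgeR). Without WT LEC replicate 4, the library at 12.03 CPM, the log2 fold change was -7.36, but that library was picked for its value. Hist2h2be also passed the filter on low counts through the IntSC group alone, so these values are a description. Hist1h2bc went the other way, with 146, 31.2, 86.1 and 44.1 CPM in LECs against the WT IntSC median of 34.8 CPM. Its groups overlapped, and its log2 fold change of 1.21 ± 0.46 had an adjusted p of 0.0765 (edgeR). With each library left out in turn, its log2 fold change was 0.70 to 1.44. The highest value came without WT LEC replicate 2, the lowest LEC library of this gene.

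All 12 near-identical H2A genes had a higher mean in WT LECs than in WT IntSCs, with log2 fold changes of 0.52 to 1.68, and none passed (adjusted p of 0.324 to 0.686, edgeR). Only Hist1h2ad and Hist1h2ah had all 4 LEC libraries above all 6 IntSC libraries, as did 9.76% of all genes tested. Hist1h2ap had 48.4, 93.5, 71.7 and 124 CPM in LECs (log2 fold change 0.52 ± 0.43), within or just above the WT IntSC range. Hist3h2a, an H2A gene of chromosome 11 that the filter left out here, had 0.29, 1.35, 1.78 and 22.1 CPM in LECs and at most 0.39 CPM in WT IntSCs. It passed where the filter was a mean count of at least 10, and it stands apart in LEC replicate 4. This gene was chosen after its values were seen.

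The third comparison, between LECs of the 2 genotypes, is the one that led to the family, and its values are a description. Hist1h2ap had 48.4, 93.5, 71.7 and 124 CPM in WT LECs and 894, 667 and 271 CPM in LECs labelled KO. Hist1h2ao had 25.4, 46.9, 34.6 and 59.9 CPM and 446, 334 and 141 CPM. All 3 libraries labelled KO lay above all WT libraries for each gene, with replicate 3 the lowest of them. Log2 fold changes were 2.87 ± 0.41 for Hist1h2ap (adjusted p = 0.0239) and 2.89 ± 0.43 for Hist1h2ao (adjusted p = 0.0259, edgeR). In the fit, 2 of the 23 histone genes tested were called higher, and 0 lower. Of all 10639 genes tested, 0.0658% were called, 0.0282% higher and 0.0376% lower. Nothing is read from that count, because the same contrast led to the family. The call was lost without any 1 of the 4 WT libraries and without KO LEC replicate 1 (adjusted p of 0.0846 to 0.204 for Hist1h2ap), while the log2 fold change stayed between 2.49 and 3.22.

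Each of the 12 near-identical H2A genes had a higher mean in LECs labelled KO, with log2 fold changes of 1.79 to 2.89. In 9 of them all libraries labelled KO lay above all WT libraries, beside 4.01% of all genes tested, and 0 of 12 lay below in all, beside 5.80%. As these copies can share reads, the 12 genes are not taken as 12 separate observations. Their sum was 106, 201, 153 and 257 CPM in the WT libraries and 1723, 1310 and 492 CPM in those labelled KO, a ratio of group means of 6.56. In every library Hist1h2ap had 1.75 to 2.29 times the reads of Hist1h2ao, although their coding sequences are identical. These 2 genes held 55.7% to 85.8% of the reads of the group.

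**Figure D3:**
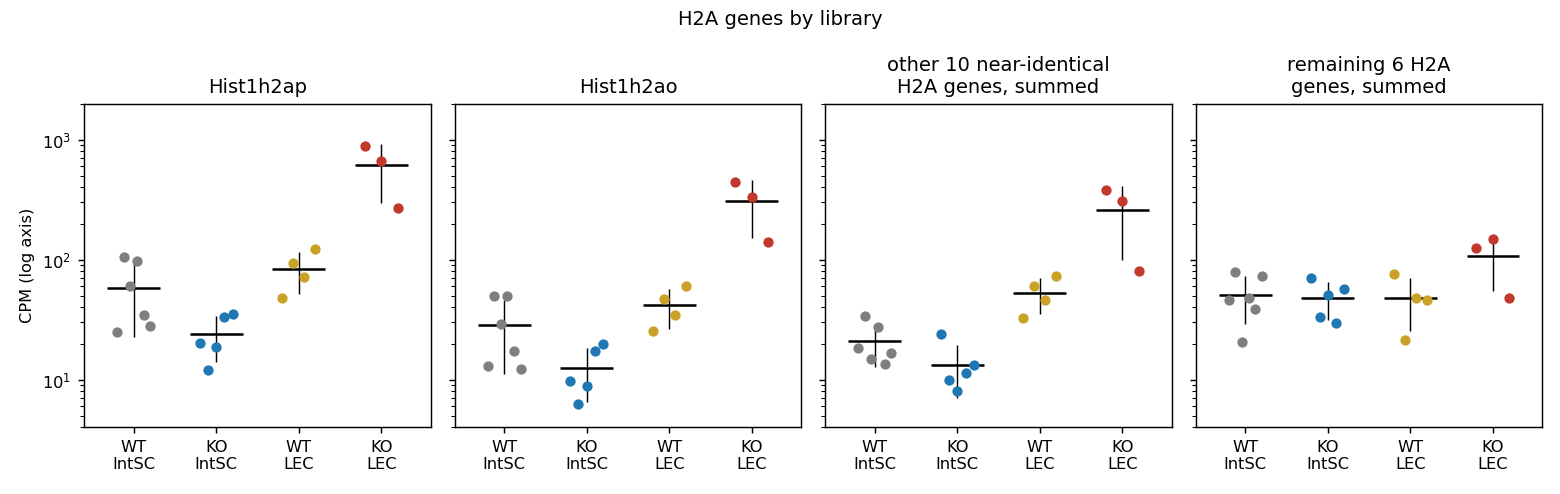
CPM of Hist1h2ap, of Hist1h2ao, of the other 10 near-identical H2A genes summed and of the remaining 6 H2A genes summed, on a log axis, with 1 point per library and the mean ± SD of each group. In the first 3 panels the 3 LEC libraries labelled KO lie above all other libraries, and the remaining 6 H2A genes overlap between the LEC groups.

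The remaining 6 H2A genes summed to 48.1 ± 22.5 CPM (SD, n = 4) in the WT and 107 ± 52.1 CPM (n = 3) in the KO libraries of LECs, with overlap. Hist2h2aa1 had 36.1, 9.60, 22.3 and 8.55 CPM in WT LECs and 46.2, 62.3 and 21.3 CPM in those labelled KO (log2 fold change 1.19 ± 0.84). All 6 H1 and all 18 H2A genes had a higher mean in LECs labelled KO. For H1 this rests on few reads or few libraries. Hist1h1a and Hist1h1b had 4 and 3 LEC reads, all in KO LEC replicate 2, and Hist1h1d at most 5 reads in any LEC library. Hist1h1c and Hist1h1e were at 0 in KO LEC replicate 1 and overlapped between the LEC groups. Of 19 H2B genes 3 had a higher and 14 a lower mean, and of 13 H4 genes 2 had a higher and 11 a lower mean. Most of those H2B and H4 genes had few reads. Of the 12 H3 genes, 1 was higher, 4 were lower and 7 had no read in either group. Summed CPM need not follow these counts of genes, and was 90.9 ± 50.4 and 124 ± 43.6 for H2B and 24.7 ± 16.6 and 19.4 ± 8.28 for H4, with overlap in each. Summed H1 CPM was 4.56 to 10.47 in WT LECs and 34.5, 36.2 and 17.1 in those labelled KO. In replicate 1 nearly all of it was Hist1h1t, and the one other H1 gene with reads there, Hist1h1d, had 0.28 CPM, below the H1 sum of every WT LEC library.

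Within H2B, Hist2h2be had 0, 0.12, 0.19 and 12.03 CPM in WT LECs and 36.2, 23.4 and 12.4 CPM in LECs labelled KO. The lowest of the latter lay just above WT replicate 4 (log2 fold change 2.98 ± 2.00, adjusted p = 0.899, edgeR). Without WT LEC replicate 4 the log2 fold change was 7.68 (adjusted p = 0.526). Hist1h2bc overlapped, with 146, 31.2, 86.1 and 44.1 CPM against 68.2, 151 and 62.6 CPM. Hist2h2bb had no read in any of the 7 LEC libraries. Within H4, Hist1h4d had 3.42, 0, 0 and 4.17 CPM against 26.5, 10.8 and 16.9 CPM, with no overlap, a log2 fold change of 3.26 ± 2.13 and an adjusted p of 0.893 (edgeR). Hist1h4n went the other way in 2 libraries, with 0, 0, 23.3 and 8.05 CPM in WT and 0, 0 and 0.26 CPM. Several genes had nearly all their LEC reads in 1 library. Hist1h1t, the testis H1, had 240 reads in KO LEC replicate 1 and at most 2 in any other library, and Hist1h2bh had 148 reads in KO LEC replicate 3. Hist1h4n, Hist1h1t and Hist1h2bh were chosen after their values were seen.

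**Figure D4:**
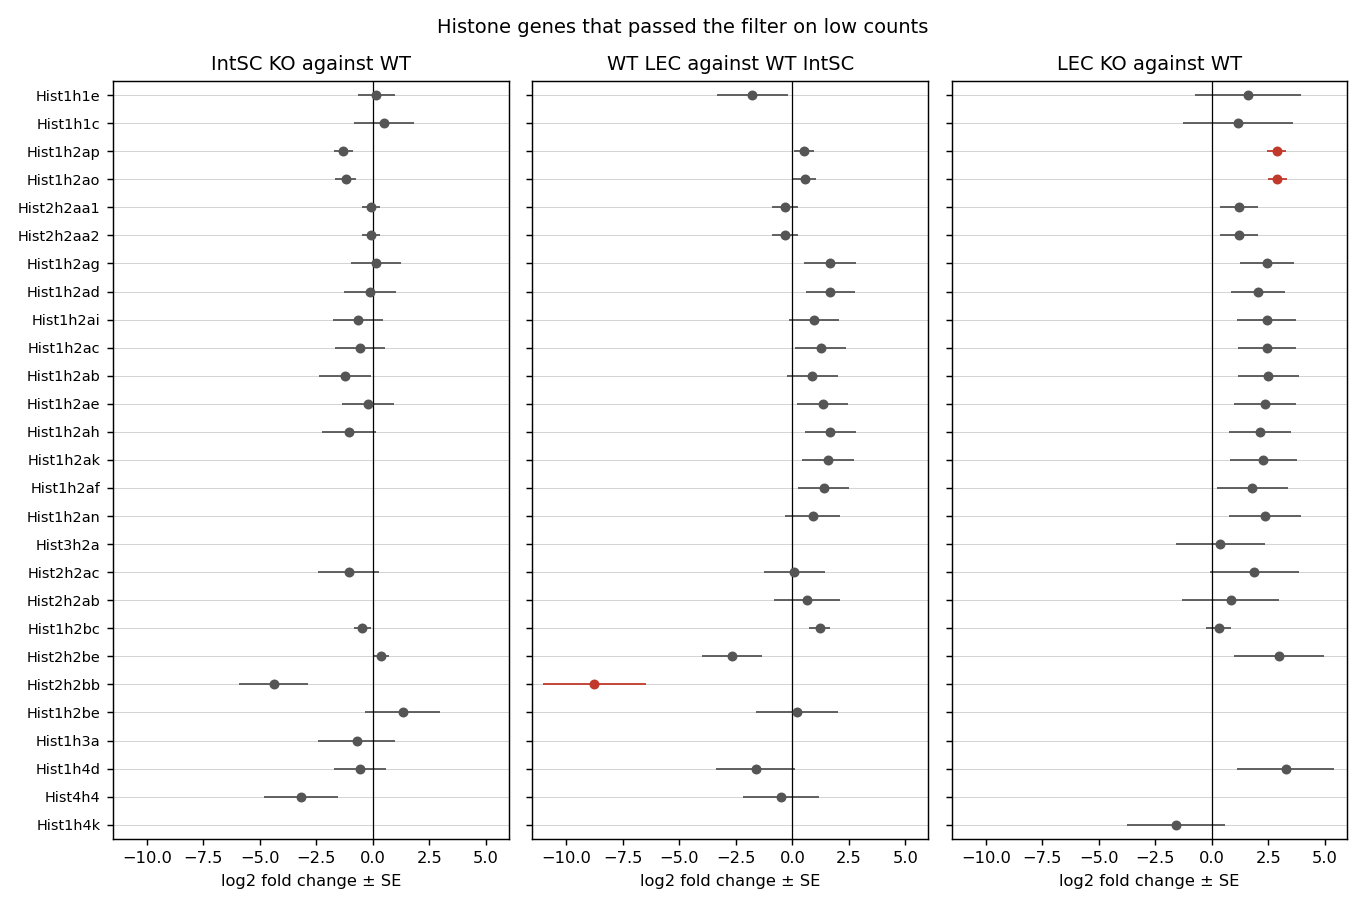
Log2 fold changes ± SE (edgeR) of the histone genes that the filter on low counts kept, in the 3 comparisons of 2 groups, with genes of adjusted p under 0.05 in red. Red marks Hist2h2bb, which was at 0 in all WT LECs so that its fitted value is no bound, and Hist1h2ap and Hist1h2ao in the comparison of the LEC genotypes.

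For the interaction, the genotype difference in LECs was subtracted from that in IntSCs. It was -4.09 ± 0.66 for Hist1h2ap (adjusted p = 0.00203) and -4.03 ± 0.69 for Hist1h2ao (adjusted p = 0.00259, edgeR) on the log2 scale. These 2 of 36 histone genes tested were called lower and 0 higher, beside 0.278% and 1.42% of all 14015 genes (1.70% in all). The count is a description, as this contrast includes the LEC comparison. All 12 near-identical H2A genes had a negative value, from -4.09 to -2.11. DESeq2 called 8 of them, each lower, beside 1023 of all 14015 genes (785 higher and 238 lower). The IntSC and LEC values entering the interaction were -1.30 and 2.87 for Hist1h2ap, of opposite sign, and the IntSC value did not pass on its own.

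Genes of S phase and mitosis, histone mRNA factors, histone chaperones and replication-independent histones were taken from lists. These lists were chosen with earlier results of these data known. Of 25 S phase genes, most of which copy DNA or supply nucleotides, 20 could be tested between genotypes in IntSCs and 18 in LECs, and 0 passed. The minichromosome maintenance helicase subunit Mcm6 was higher in WT LECs than in WT IntSCs (44.3 ± 17.4 against 8.97 ± 4.64 CPM, log2 fold change 2.30 ± 0.59, adjusted p = 0.0110, edgeR). The S phase genes summed to 198 to 439 CPM in WT LECs and to 538, 492 and 183 CPM in LECs labelled KO, with overlap. Of 10 mitosis genes, 6 could be tested in IntSCs and between WT cell types and 9 in the other comparisons, and 0 passed. All 9 tested between LEC genotypes had a positive log2 fold change, with a median of 2.56 beside -0.03 over all genes. Of all 10 mitosis genes, 9 had a higher and 1 a lower mean in LECs labelled KO. Their sum was 12.7, 125, 24.2 and 83.9 CPM in WT LECs and 434, 376 and 91.1 CPM in LECs labelled KO. Replicates 1 and 2 lay above all WT libraries and replicate 3 within their range, and replicate 3 was also the lowest of the 3 in near-identical H2A reads. Top2a, a DNA topoisomerase, had 0.28 to 28.5 CPM in WT LECs and 84.1, 96.3 and 26.3 CPM in LECs labelled KO (log2 fold change 2.76 ± 1.17, adjusted p = 0.549, edgeR). In IntSCs it had 20.7 ± 14.3 CPM in WT and 7.26 ± 2.99 CPM in libraries labelled KO (log2 fold change -1.52 ± 0.56, adjusted p = 0.273, edgeR). Plk1, a mitotic kinase, had 15.2 ± 18.3 and 36.8 ± 33.6 CPM in the LEC groups.

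Of 14 factors that process or degrade histone mRNA, 13 or 14 could be tested in each comparison, and 0 passed. Their 2 members with the most reads were Sympk, a scaffold of the cleavage complex, and Upf1, a helicase of mRNA decay. Sympk had 90.6 ± 65.2 CPM in WT LECs and 41.4 ± 6.25 CPM in LECs labelled KO, and Upf1 29.4 ± 20.8 and 33.9 ± 25.7 CPM. Of 11 histone chaperones, 9 to 11 could be tested in each comparison, and 0 passed. Rbbp4, a subunit of the chromatin assembly factor CAF-1, had 282 ± 52.6 and 228 ± 27.2 CPM in the LEC groups, and Ssrp1, a subunit of the chaperone FACT, 92.7 ± 14.8 and 103 ± 52.5 CPM. Of 11 genes listed as replication-independent histones, H2afj was lower in WT LECs than in WT IntSCs (47.1 ± 20.2 against 113 ± 20.5 CPM, log2 fold change -1.27 ± 0.32, adjusted p = 0.0101, edgeR). None of the 11 passed between genotypes. They summed to 1127 to 1520 CPM in WT LECs and to 2223, 1940 and 1552 CPM in LECs labelled KO, without overlap.

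Markers of other cell types moved with the label KO, and their part in the histone values was not tested. The 9 Paneth cell markers summed to 1.59 to 29.9 CPM in WT LECs and 90.04 to 803 CPM in LECs labelled KO. In IntSCs they summed to 1.48 to 86.5 CPM in WT and 191 to 372 CPM in libraries labelled KO. Of the 9 genes, 8 had a higher mean in the libraries labelled KO of each cell type, with Defa6, Defa24 and Defa17, which encode defensins of Paneth cells, the highest, and Pla2g2a was at 0 in all libraries. The test called 3 Paneth cell markers higher in IntSCs labelled KO and Defa6 in LECs labelled KO (adjusted p = 0.0473, edgeR). In the LEC libraries labelled KO, the Paneth cell sums were 513, 90.04 and 803 CPM in replicates 1, 2 and 3, beside 1723, 1310 and 492 CPM for near-identical H2A genes. The 12 crypt epithelial markers summed to 16.6 to 48.4 CPM in WT LECs and to 45.9, 104 and 180 CPM in LECs labelled KO, with overlap, and 7 of 12 had a higher mean in the latter. Cldn7, Krt8 and Krt18 were the highest there, Olfm4 was at 0 in all libraries, and Krt20 and Ascl2 were at 0 in all LEC libraries. Stromal markers (659 to 2189 CPM in WT LECs, 340 to 605 CPM in those labelled KO) and blood endothelial markers (1904 to 2455 and 1462 to 1872 CPM) had lower sums. In IntSCs, LEC markers summed to 237 to 414 CPM in WT and 421 to 498 CPM in libraries labelled KO, without overlap and with 0 of 8 tested passing. The genes of this list did not move together, as 5 had a higher and 4 a lower mean in IntSCs labelled KO. In IntSCs labelled KO, Col3a1 of the stromal list (adjusted p = 0.0438) and Cd34 of the blood endothelial list (adjusted p = 0.00688, edgeR) fell. Krt19 of the crypt epithelial list rose (adjusted p = 0.00339, edgeR). Each was the only gene of its list called there. Log2 fold changes were positive in 1 of 9 stromal, 5 of 8 blood endothelial and 6 of 8 crypt epithelial markers tested. Leukocyte markers summed to at most 8.65 CPM in any LEC library. In bulk samples, a larger number of cells that make a transcript and more of it per cell cannot be told apart.

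**Figure D5:**
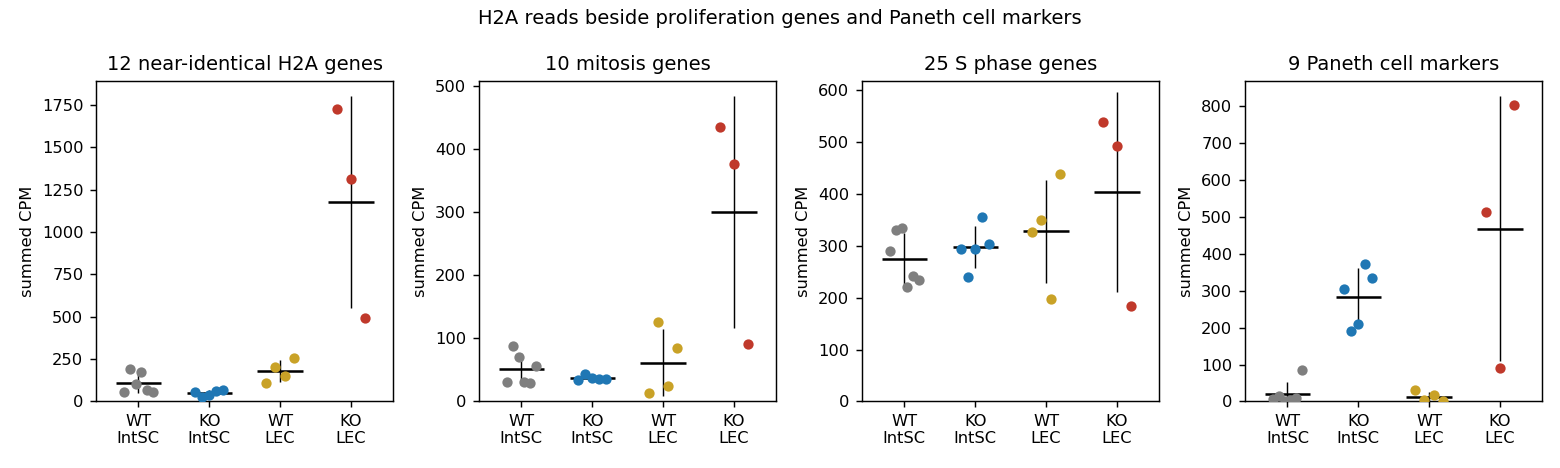
Summed CPM of the 12 near-identical H2A genes, the 10 mitosis genes, the 25 S phase genes and the 9 Paneth cell markers, with 1 point per library, the group mean as a bar and the SD as a line. Mitosis gene sums of LECs labelled KO were 434, 376 and 91.1 CPM and Paneth cell sums 513, 90.04 and 803 CPM, in the order of the replicates.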

How the data were processed

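RNA of 18 sorted mouse samples was sequenced. Per the labels, libraries were made with the LEXOGEN Quant-Seq kit from total RNA. The catalogue number in the labels may belong to another kit of that maker, which could not be settled here. The authors deposited 1 table of whole-number read counts per library and gene symbol, not normalised (23282 rows, 23238 symbols, the counts of 35 repeated symbols summed, no histone gene among them). The submitters' processing notes name Bowtie2, edgeR and the build mm10, and the study's methods TopHat and Cufflinks. The counting program, the annotation and how reads of several places were counted are not given in the sources used here. This bears on near-identical copies.

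Groups came from the sample titles. The members and gene lists were chosen with earlier results of these data known. Tests used the quasi-likelihood functions of edgeR 4.0.16 under R 4.3.3 (TMM, filterByExpr, robust fit, Benjamini-Hochberg adjustment over all genes tested, threshold 0.05), with the 2 groups compared or, for the interaction, all 4. Simulated data served to test the fit. Sums over members got no test. The 45S rRNA gene Rn45s held 7.02% to 24.4% of the counts. Total counts of 5361250 to 10549233 set a floor of 3 counts at 0.284 to 0.560 CPM. Floors cover counting error only, as reads without molecular identifiers are not independent molecules. The SE of a fold change was derived from the edgeR test, as its absolute log2 value over the square root of the F statistic. It holds the spread between libraries. Intervals of 95% take this SE with the normal distribution, which makes them too narrow for so few libraries. The study pooled several experiments, and the labels do not say which library came from which. DESeq2 1.42.0, other scalings and filters, the replicate number as a block and leaving out each library were tried.

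Named are Lats1 and Lats2, in each class the 3 genes with the highest mean CPM if at least 5, every histone gene past the threshold, of each pathway list the genes past it or else the 2 with the highest mean CPM, and of marker lists the 3 highest. Others were chosen after their values were seen. Sequences were read from GENCODE vM21 and RefSeq with pandas 2.3.3 and biopython 1.88 in Python 3.11.15.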

Additional observations from a re-analysis of the deposited data

Results flagged for a closer look

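In 6 of 41 groups of values examined, 1 library stood far from the others by Dixon's criterion, where chance gives about 2.05 (1 in 20). Hist1h2bc had 9.14 CPM in KO IntSC replicate 1 and 25.3 to 31.5 CPM in the other 4 libraries of its group. Hist2h2be had 12.03 CPM in WT LEC replicate 4 and at most 0.187 CPM in the other 3. Summed H2B CPM was 94.5 in WT IntSC replicate 2 and 48.9 to 64.8 in the others. Summed H3 CPM was 0.261 in KO IntSC replicate 1 (3.81 to 5.23 in the others) and 5.23 in WT LEC replicate 1 (at most 0.0935 in the others). Summed H4 CPM was 18.8 in KO IntSC replicate 1 and 8.25 to 11.1 in the others. The flagged library was KO IntSC replicate 1 in 3 of the 6 groups.

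The genotype difference in IntSCs minus that in LECs was -4.03 for Hist1h2ao and -4.09 for Hist1h2ap on the log2 scale, past the threshold of the interaction test. This contrast holds the LEC comparison that led to the family, so the values are a description.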

How the results depend on the processing

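Under DESeq2, 1 histone gene was called in IntSCs (none in edgeR) and 8 in the interaction (2 in edgeR). Between WT cell types, 2 were called with a mean count of at least 10 and 0 with the replicate block. Between LEC genotypes, 0 were called with the replicate block, in which replicate numbers entered as a block. Deviations of same-numbered libraries had correlations near 0 (-0.0546 to 0.0779). Between WT cell types they were 0.0268 to 0.0383, beside a mean of -0.00664 for libraries of different number. Whether the numbers mark pairs is not given. The replicate block left 1626 genes called between WT cell types (2763 without it), 120 in IntSCs (183), 1 in LECs (7) and 14 in the interaction (238). DESeq2 called 376 genes in IntSCs, 309 in LECs and 1023 in the interaction, and in LECs 32 were called with no filter beyond 1 read and 20 with a mean count of at least 10.

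Leaving out 1 library at a time gave 0 histone genes called in IntSCs, 1 to 2 between WT cell types, 0 to 2 between LEC genotypes and 2 to 3 in the interaction, and 99 to 186, 2233 to 2889, 0 to 16 and 161 to 461 genes in all. The cause of these shifts was not tested beyond the smaller number of libraries. No called value changed sign under any alternative run. The log2 ratio of summed histone CPM stayed within -0.58 to -0.35 in IntSCs, 0.37 to 0.61 between WT cell types and 1.74 to 2.40 between LEC genotypes when 1 library was left out, and moved by less than the spread between libraries under other scalings and, chosen after seeing the data, with identical rows counted once. Few LEC libraries and low counts limit what can be called.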
